A study of Mus musculus with 8 samples.

Results

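The genes described here are 8 markers of muscle stem cells and of the steps by which they become muscle: *Pax7*, *Myf5*, *Myod1*, *Myog*, *Myf6*, *Tmem8c* (current symbol *Mymk*), *Gm7325* (current symbol *Mymx*) and *Cdh15*. They were found by their gene symbols among the 22206 probe sets of the array, and each of the 8 matched 1 probe set. Expression was measured in whole gastrocnemius (GAS) muscle of male wild-type C57/Bl6j mice, 14 weeks old per the labels, 3 weeks after an intramuscular injection of adeno-associated virus (AAV). One GAS received AAV sh-RNA MYTHO, a virus with a short hairpin RNA against *D230025D16Rik*, the transcript that codes for MYTHO. The GAS of the opposite leg received AAV sh-RNA scrmb, a virus with a scrambled hairpin, so the control muscles carried AAV and a hairpin too. Both hairpins were driven by the U6 promoter, which is not restricted to a cell type. The vector was serotype 1, which the study describes as known to target skeletal muscle cells. There were 4 muscles in each group, from 4 animals that are called A to D here.

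Skeletal muscle fibres are long cells with many nuclei that no longer divide. New nuclei come from satellite cells, stem cells that lie under the sheath of the fibre and are defined by the transcription factor PAX7. On activation these cells pass through a sequence of myogenic regulatory factors (MRFs), DNA-binding proteins of the basic helix-loop-helix type: MYF5 and MYOD mark the committed myoblast, myogenin (*Myog*) its differentiation, and MRF4 (*Myf6*) the mature fibre. Differentiated myoblasts then fuse with each other or with a fibre, which requires the membrane proteins myomaker (*Tmem8c*) and myomixer (*Gm7325*). *Myog* is also induced inside existing fibres when their nerve supply is lost.

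Hairpin delivery was checked on its target. *D230025D16Rik* had log2 signals of 11.35, 11.31, 10.78 and 11.05 in the scrmb muscles of animals A to D, and of 8.16, 8.20, 8.80 and 8.08 in the MYTHO muscles. The signal fell by 85.8% (limma adjusted p = 0.00044), and the groups were apart in all 4 animals. Array medians ran from 6.39 to 6.47. On the main axis of variation between arrays, the scrmb muscle of animal D scored 3.3, between the other scrmb muscles (-45.4 to -25.7) and the MYTHO muscles (11.7 to 40.4). The 10 myofibre markers had high signals, with group means from 16.54 for *Myh1* in scrmb muscle up to the ceiling of the scale, a log2 signal of 19.93, at which *Acta1*, *Myh4* and *Atp2a1* stood on all 8 arrays. The table used here gives no detection calls, so how far a signal lay above background is unknown.

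None of the 8 genes differed between the groups after adjustment over all probe sets (limma, adjusted p from 0.307 to 0.998), where 0.027% of all probe sets passed. At an unadjusted p under 0.05, 2 of the 8 were higher in MYTHO muscle, *Myog* and *Cdh15*, and 0 were lower, against 4.81% higher and 7.58% lower among all probe sets. With a 2-fold minimum added to that p, as the study's array analysis asked, 0 of the 8 and 1.51% of all probe sets remained. Of the 8 genes, 6 had a higher and 2 a lower mean in MYTHO muscle, and their median log2 fold change was 0.24, beside -0.005 over all probe sets. In whole muscle, fewer cells of a type and less RNA per cell cannot be told apart.

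**Figure D1:**
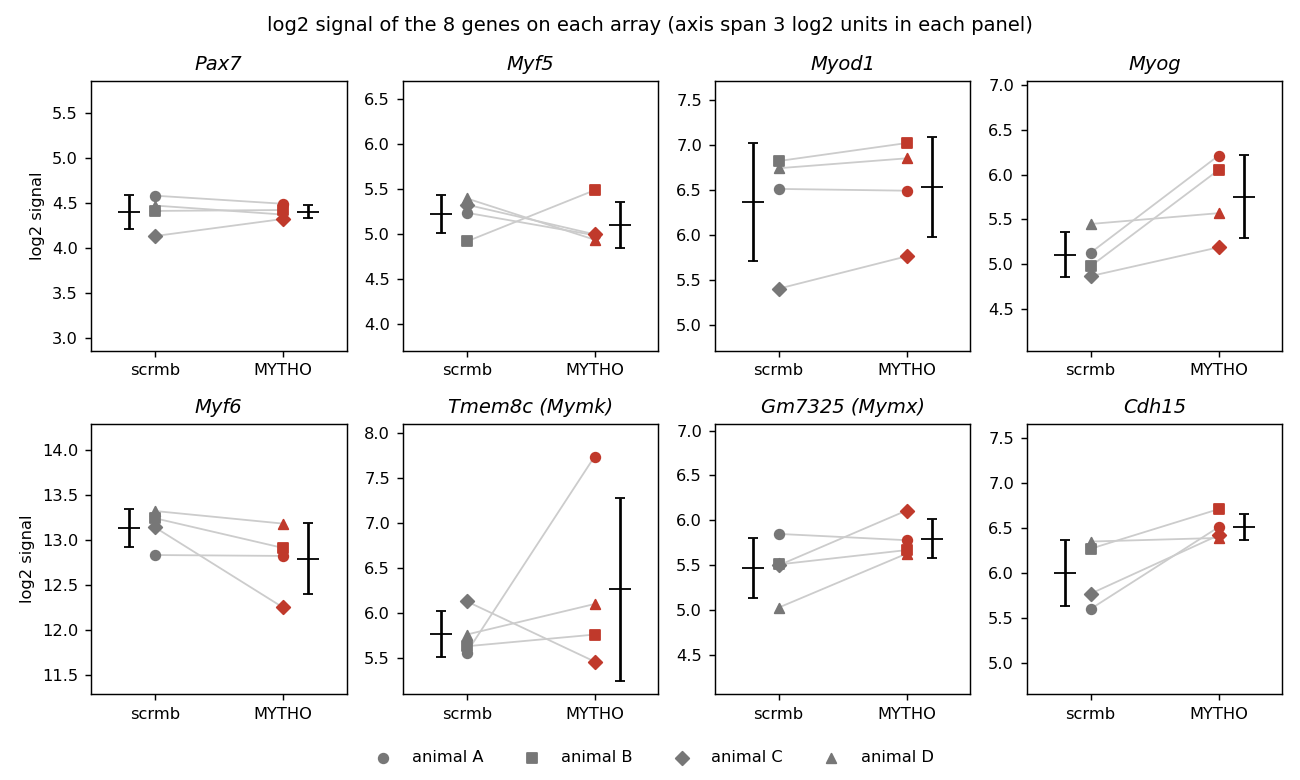
Log2 signal of each gene (vertical axis, spanning 3 log2 units in every panel) in scrmb and MYTHO muscles, with 1 symbol per animal and grey lines joining the legs of an animal. Black bars give mean ± SD of 4 muscles. *Cdh15* is the gene whose groups do not overlap, *Myog* is higher in the MYTHO leg of each animal, and a single MYTHO muscle (animal A, 7.74) stands high for *Tmem8c*.

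*Pax7*, the gene that defines satellite cells (chromosome 4, 139737059 to 139833530 in GRCm38.p6), had log2 signals of 4.58, 4.41, 4.13 and 4.47 in scrmb muscles A to D. In MYTHO muscles it had 4.49, 4.42, 4.32 and 4.37. The ranges overlapped almost wholly, and the means were 4.40 ± 0.19 and 4.40 ± 0.07 (SD, n = 4 each). The log2 fold change was 0.00, with a 95% interval from -0.37 to 0.37 (limma adjusted p = 0.998). *Pax7* was the 1 gene of the 8 whose mean signal did not pass the filter that kept the upper 75% of probe sets, at 5.13.

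*Cdh15* encodes M-cadherin, an adhesion protein at the contact between satellite cell and fibre, and lies on chromosome 8 from 122848374 to 122867397. Its log2 signals were 5.60, 6.27, 5.77 and 6.35 in scrmb muscles A to D, and 6.51, 6.71, 6.42 and 6.39 in MYTHO muscles. Every MYTHO muscle was above every scrmb muscle, a separation that 2.59% of all probe sets showed in this direction and 3.87% in the other, but the gap between the highest scrmb and the lowest MYTHO muscle was narrow. The difference on the log2 scale was 0.51 (standard error 0.21), or 1.42-fold, with an unadjusted p of 0.0305 and an adjusted p of 0.347 (limma). The MYTHO leg was higher in 4 of 4 animals, by 0.91 in animal A but by 0.04 in animal D. The unadjusted p was no longer under 0.05 on leaving out scrmb A (0.0963), scrmb C (0.0811), MYTHO A (0.0541) or MYTHO B (0.0774), and the log2 fold change then was 0.378, 0.434, 0.509 or 0.443.

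The satellite cell markers set for the check of cell types held 3 genes besides *Pax7*, *Myf5* and *Cdh15*. *Calcr*, the calcitonin receptor that keeps satellite cells at rest, had a log2 fold change of 0.23 (95% interval -0.38 to 0.84). *Vcam1*, a surface protein used to sort these cells and also made by inflamed vessels, had 0.08 (-0.39 to 0.55), and *Chrdl2*, a secreted BMP antagonist, had 0.01 (-0.53 to 0.54). All intervals included 0, and 0 of the 3 passed an unadjusted p under 0.05 in limma. In the wider list of 25 satellite cell genes, described further on, 20 had a higher mean in MYTHO muscle and 2, *Sdc3* and *Hes1*, were higher at that p (8%, beside 4.81% of all probe sets). Endothelial markers moved the same way, with a higher mean for 7 of 7 and a median log2 fold change of 0.39, and their part in the satellite cell list was not tested.

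Among the MRFs of the committed myoblast, *Myf5* (chromosome 10, 107482908 to 107486927) had log2 signals of 5.24, 4.92, 5.33 and 5.40 in scrmb muscles A to D and of 4.99, 5.49, 5.0 and 4.94 in MYTHO muscles. The MYTHO leg was lower in 3 of 4 animals, and animal B went the other way by 0.57. The signal was low, with a MYTHO mean of 5.11 just under the filter level of 5.13 and a scrmb mean of 5.22 just above it. The log2 fold change was -0.12 (95% interval -0.54 to 0.30, limma adjusted p = 0.859), and without single arrays it ran from -0.246 (MYTHO B left out) to -0.058 (scrmb D left out). *Myf5* and *Myf6* are neighbours, 5920 bases apart.

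*Myod1*, the activator of the myogenic programme (chromosome 7, 46376474 to 46379092), had log2 signals of 6.51, 6.82, 5.40 and 6.74 in scrmb muscles A to D and of 6.49, 7.02, 5.76 and 6.85 in MYTHO muscles. Its level followed the animal more than the virus, with both legs of animal C below all other muscles. The SD was 0.61 between the means of the animals and 0.16 between the leg differences, which ran from -0.02 to 0.36. On the log2 scale the groups differed by 0.16 (standard error 0.34, limma adjusted p = 0.893), and with animal as a block the standard error was 0.18 (adjusted p = 0.755). Without single arrays the difference ran from -0.160 (scrmb C left out) to 0.419 (MYTHO C left out). This pattern was not shared by *Myf5*, for which the animal means had an SD of 0.04 and the leg differences one of 0.47.

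*Myog*, the factor that switches myoblasts to differentiation, lies on chromosome 1 from 134290004 to 134292548. It had log2 signals of 5.13, 4.98, 4.87 and 5.45 in scrmb muscles A to D and of 6.21, 6.05, 5.19 and 5.57 in MYTHO muscles. The MYTHO leg was higher in 4 of 4 animals, but MYTHO C lay below scrmb D, so the groups overlapped. The difference was 1.08 in animal A and 1.07 in animal B, and 0.32 and 0.12 in animals C and D. The means were 5.11 ± 0.25 and 5.75 ± 0.46 (SD, n = 4 each), a log2 fold change of 0.65 (standard error 0.24), or 1.57-fold in signal. The scrmb mean lay just under the filter level of 5.13, so *Myog* passed that filter through its MYTHO values. How far the scrmb signal lay above background is not known. In the fit of all arrays the *Myog* difference was the largest among the 8 genes, but *Cdh15* was larger without MYTHO A and *Tmem8c* without scrmb C or MYTHO B. The *Myog* difference had a 95% interval from 0.12 to 1.18, an unadjusted p of 0.0204 and an adjusted p of 0.307 (limma). The unadjusted p was over 0.05 on leaving out scrmb C (0.0560), MYTHO A (0.0691) or MYTHO B (0.0597), and the log2 fold change then was 0.57, 0.50 or 0.55.

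*Myf6*, the MRF of mature fibres (chromosome 10, 107492848 to 107494723), had log2 signals of 12.83, 13.24, 13.14 and 13.32 in scrmb muscles A to D and of 12.82, 12.91, 12.25 and 13.18 in MYTHO muscles. The MYTHO leg was lower in 4 of 4 animals, by 0.89 in animal C and by 0.01 in animal A. The log2 fold change of -0.34 (95% interval -0.82 to 0.14, limma adjusted p = 0.570) was opposite in sign to that of *Myog*, and it did not pass the test. Without single arrays it ran from -0.162 (MYTHO C left out) to -0.472 (MYTHO D left out).

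**Figure D2:**
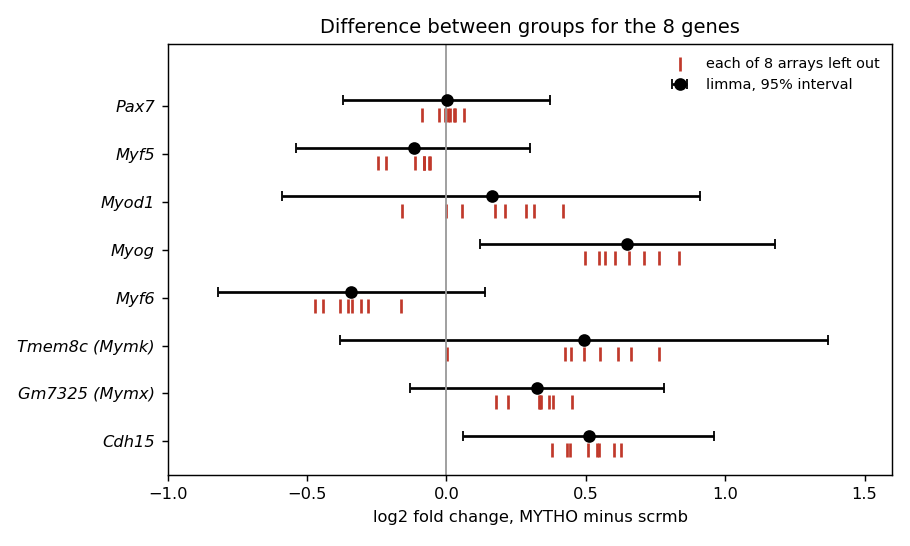
Log2 fold change, MYTHO minus scrmb, of each gene (horizontal axis) as a black point with its 95% limma interval; red ticks give the value with each of the 8 arrays left out. The intervals of *Myog* and *Cdh15* lie above 0 before adjustment, and the tick of *Tmem8c* without MYTHO A sits at 0.003.

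Proteins of the MRF family bind the E-box, a DNA motif of 6 bases written CANNTG. RefSeq windows in GRCm38.p6, from 250 bases before to 50 bases after the transcription start, were given for 4 of the 8 genes, *Pax7*, *Myf5*, *Myog* and *Cdh15*. The windows of the pair with an unadjusted p under 0.05 are shown, as chr1:134289754-134290053 on the plus strand for *Myog* and chr8:122848124-122848423 on the plus strand for *Cdh15*, with every match to CANNTG in capitals. The motif was searched on both strands, on which it reads the same.
Myog: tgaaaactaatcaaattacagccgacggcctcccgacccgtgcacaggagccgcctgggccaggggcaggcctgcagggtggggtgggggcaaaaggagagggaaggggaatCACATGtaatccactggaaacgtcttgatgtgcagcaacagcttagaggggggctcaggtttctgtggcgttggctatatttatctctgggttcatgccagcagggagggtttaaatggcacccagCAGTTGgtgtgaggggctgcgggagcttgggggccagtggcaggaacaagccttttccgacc
Cdh15: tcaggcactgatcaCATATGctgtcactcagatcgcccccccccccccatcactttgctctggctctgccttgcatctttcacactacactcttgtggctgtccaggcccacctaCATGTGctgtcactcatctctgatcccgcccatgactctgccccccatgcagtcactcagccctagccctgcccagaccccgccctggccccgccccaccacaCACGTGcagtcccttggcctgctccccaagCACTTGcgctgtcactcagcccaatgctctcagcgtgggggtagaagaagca
The *Myog* window held 2 matches and the *Cdh15* window held 4. The windows of *Pax7* and *Myf5* held 0. Of all 32851 windows in the table, 72.3% held at least 1 match and 6.49% held 4 or more, so a match by itself is common. The form CAGCTG, present in 16.3% of windows, was in 0 of the 4. A strict consensus for MEF2, the MADS-box factors that act with the MRFs, was searched on both strands too. It was in 3.19% of all windows and in 0 of the 4. The search does not count sites with a base off the consensus, such as ctatatttat in the *Myog* window.

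Of the fusion genes, *Tmem8c* (chromosome 2, 27061636 to 27072161) encodes myomaker, which brings the outer leaflets of apposed membranes together. Its log2 signals were 5.56, 5.63, 6.13 and 5.76 in scrmb muscles A to D and 7.74, 5.76, 5.46 and 6.10 in MYTHO muscles. MYTHO A stood 1.64 above the next highest muscle of its group, and the remaining muscles of both groups overlapped. The log2 fold change of 0.50 had a 95% interval from -0.38 to 1.37 (limma adjusted p = 0.674), and without MYTHO A it was 0.003. The difference within animal A was 2.18, whereas animal C went the other way by 0.67.

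*Gm7325* encodes myomixer, a small membrane protein that completes the opening of the fusion pore, and lies on chromosome 17 from 45600961 to 45602196. It had log2 signals of 5.85, 5.51, 5.50 and 5.03 in scrmb muscles A to D and of 5.78, 5.67, 6.11 and 5.63 in MYTHO muscles. The MYTHO leg was higher in 3 of 4 animals, by 0.61 in C and 0.60 in D, and lower by 0.07 in animal A. The log2 fold change was 0.33 (95% interval -0.13 to 0.78, limma adjusted p = 0.570). Without single arrays it ran from 0.178 (scrmb D left out) to 0.451 (scrmb A left out). The animal with the high *Tmem8c* value was thus not one with a large *Gm7325* difference, and the animals with the largest *Myog* differences, A and B, had the smallest *Gm7325* differences.

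**Figure D3:**
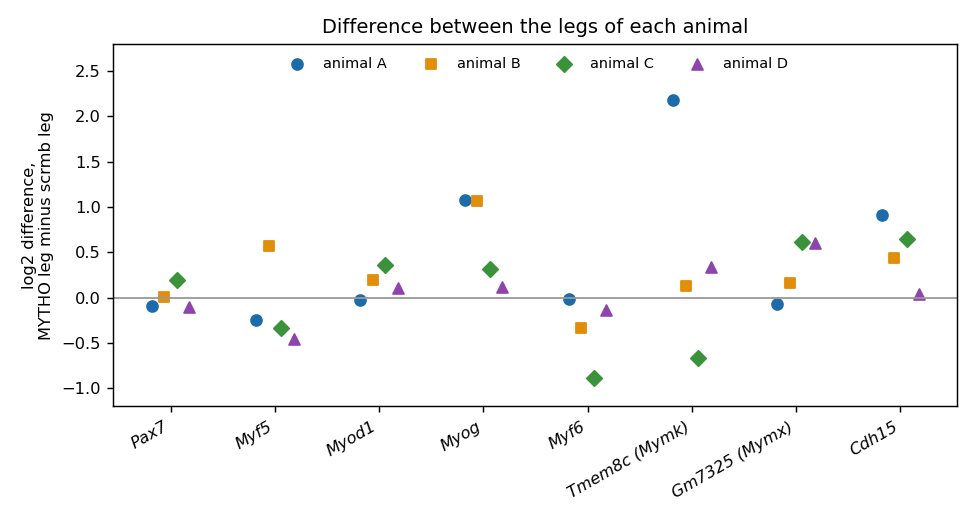
Log2 difference between the MYTHO leg and the scrmb leg of each animal (vertical axis) for the 8 genes, with 1 symbol and colour per animal. *Myog* and *Cdh15* are above 0 in all 4 animals and *Myf6* below it, while the largest single difference, 2.18 for *Tmem8c*, is in animal A.

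The genes around these 8 were taken from lists of satellite cell genes, partners and regulators of the MRFs, their targets, fusion genes, proliferation genes and markers of regenerating fibres. All 99 genes were on the array. In limma, 10 were higher in MYTHO muscle at an unadjusted p under 0.05 (10.1%, beside 4.81% of all probe sets) and 0 were lower (beside 7.58%), and 0 passed after adjustment. The 10 included *Mybph* and *Actc1*, already known to stand high in these data when the lists were drawn up. The share of higher genes is therefore no independent evidence. Their median log2 fold change was 0.18. The count of higher genes was 7 without MYTHO A and between 8 and 12 without any other single array.

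The genes listed as MRF targets held the largest differences. *Mybph* and *Actc1* were already known to stand high in these data when the list was drawn up, so their place in it is no independent evidence. *Mybph*, a myosin-binding protein of the sarcomere, had log2 signals from 8.94 to 11.15 in scrmb and from 11.77 to 13.79 in MYTHO muscles, a log2 fold change of 2.96 (limma adjusted p = 0.0609). With animal as a block its adjusted p was 0.0156. *Actc1*, the actin of developing muscle and heart, ran from 12.50 to 14.10 in scrmb and from 14.45 to 15.49 in MYTHO muscles, a log2 fold change of 1.57 (limma adjusted p = 0.112). *Chrna1*, a subunit of the acetylcholine receptor that rises in denervated fibres, ran from 6.20 to 6.59 in scrmb and from 6.80 to 7.57 in MYTHO muscles, a log2 fold change of 0.91 (limma adjusted p = 0.127). The groups of all 3 were apart, a separation that 2.59% of all probe sets showed in this direction and 3.87% in the other. Of the 16 targets, these 3 were higher at an unadjusted p under 0.05 (18.8%, beside 4.81% of all probe sets), 14 had a higher mean in MYTHO muscle, and the median log2 fold change was 0.29. One was saturated on all arrays. Over 18 alternatives the adjusted p of *Mybph* ran from 0.0156 to 0.248 and was under 0.05 in 5, and that of *Actc1* was under 0.05 in 1, without scrmb D (0.0493).

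Other targets, among them genes that mark new or denervated fibres, did not pass. The acetylcholine receptor subunits *Chrnd* and *Chrnb1* had log2 fold changes of 0.40 (95% interval -0.03 to 0.83) and 0.37 (-0.12 to 0.86). *Chrng*, the fetal subunit of the acetylcholine receptor, had a log2 fold change of 0.01 (95% interval -0.44 to 0.46), at low group means of 3.65 and 3.66 that, like *Pax7*, did not pass the filter on the upper 75% of probe sets. *Myh3*, embryonic myosin, had one of 0.71 (-0.08 to 1.49), and *Cdkn1a*, the cell cycle inhibitor p21, had one of 0.62 (-0.10 to 1.34). *Myh8*, perinatal myosin, was at the ceiling on all 8 arrays and gave no comparison.

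Of the 16 partners and regulators of the MRFs, 4 were higher at an unadjusted p under 0.05 (25%, beside 4.81% of all probe sets) and 0 were lower (beside 7.58%). *Hdac5*, a deacetylase that holds back MEF2, ran from 5.81 to 6.27 in scrmb and from 6.49 to 7.01 in MYTHO muscles, a log2 fold change of 0.57 (limma adjusted p = 0.252). Its probe set also names a microRNA gene. *Tcf12*, a dimerisation partner of the MRFs, ran from 11.91 to 12.13 and from 12.26 to 12.57, a log2 fold change of 0.42 (limma adjusted p = 0.333), and over 18 alternatives it ran from 0.37 to 0.49, with an unadjusted p under 0.05 in 14. *Tcf3*, another partner, and *Twist1*, an inhibitor of the MRFs, had log2 fold changes of 0.73 and 0.64, and their groups overlapped. The mean signal of *Twist1* was low, under the level that kept the upper 75% of probe sets. Partner and inhibitor genes were thus both among the 4.

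Of the 25 satellite cell genes, 20 had a higher mean in MYTHO muscle, the median log2 fold change was 0.26, and 2 passed an unadjusted p under 0.05. *Sdc3*, a heparan sulfate proteoglycan of satellite cells, ran from 7.18 to 7.87 in scrmb and from 8.02 to 8.56 in MYTHO muscles, a log2 fold change of 0.70 (limma adjusted p = 0.214). *Hes1*, a target of Notch, ran from 5.89 to 6.08 and from 6.30 to 6.51, a log2 fold change of 0.37 (limma adjusted p = 0.378), and over 17 alternatives it ran from 0.32 to 0.41, with an unadjusted p under 0.05 in 7. The mean of the 25 genes was 7.34 to 7.62 in scrmb and 7.66 to 7.86 in MYTHO muscles. Markers of endothelial cells were apart in the same direction, with a list mean of 9.82 to 10.22 in scrmb and 10.38 to 10.62 in MYTHO muscles. All 7 had a higher mean, and 2 were higher at an unadjusted p under 0.05 (28.6%, beside 4.81% of all probe sets), *Pecam1* with a log2 fold change of 0.45 and *Tek* with 0.86. Several of the 25, such as *Cd34*, *Notch1* and *Hey1*, are also expressed by vessels. The part of endothelial RNA in the satellite cell list was not tested.

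The 32 genes with a role in myoblast fusion had a median log2 fold change of -0.08, with values from -0.44 to 0.54, and 1 was higher at an unadjusted p under 0.05 (3.12%, below the 4.81% of all probe sets). This was *Ptgfrn*, a tetraspanin partner, which ran from 7.37 to 7.82 in scrmb and from 7.83 to 8.41 in MYTHO muscles, a log2 fold change of 0.54 (limma adjusted p = 0.297). Of 6 markers of regenerating fibres, 5 had a higher mean, the median log2 fold change was 0.26, and 1 was higher at an unadjusted p under 0.05 (16.7%, beside 4.81% of all probe sets), *Actc1*, already known to stand high when the lists were drawn up. All 6 were genes of other lists too, *Ncam1* of the satellite cell list and the rest of the MRF targets. Their values are thus the same ones counted there. The 10 proliferation genes had a median of -0.10, and 0 passed. *Mki67*, a marker of dividing cells, had a log2 fold change of 0.19 (95% interval -0.31 to 0.69) and *Pcna*, the replication clamp, one of -0.39 (-0.83 to 0.05).

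Markers of other cell types were mixed. The list mean of 8 macrophage markers was 7.12 to 7.59 in scrmb and 7.18 to 7.55 in MYTHO muscles, and that of 8 fibroblast markers 11.02 to 11.19 and 11.00 to 11.43. Within the latter, *Dcn*, a matrix proteoglycan, had a log2 fold change of -0.59 and *Ly6a*, also a vessel gene, one of 0.72, both at an unadjusted p under 0.05. The list mean of 8 Schwann cell markers was 6.98 to 8.38 in scrmb, with scrmb C highest, and 6.90 to 7.46 in MYTHO muscles, and 7 of the 8 had a lower mean in MYTHO muscle, none at an unadjusted p under 0.05 in limma.

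**Figure D4:**
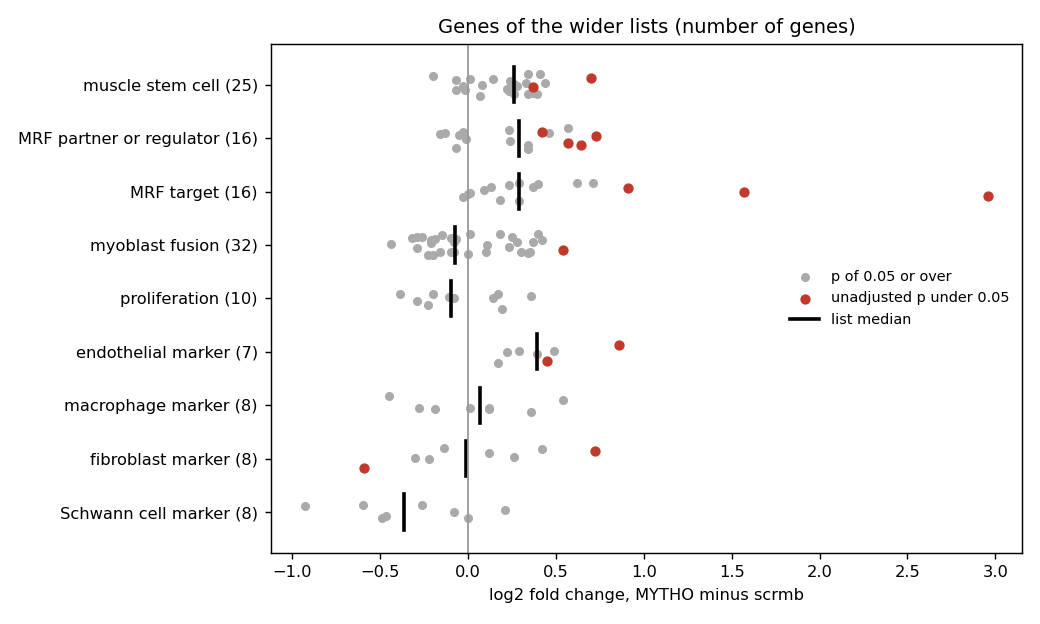
Log2 fold change, MYTHO minus scrmb (horizontal axis), of every gene in the wider lists and in the lists of other cell types, with the number of genes in brackets. Red points have an unadjusted limma p under 0.05 and black bars are list medians, which run from -0.37 for Schwann cell to 0.39 for endothelial markers.

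Across the 8 arrays, the profile most like that of *Myog* was sought by the root mean square (RMS) difference between deviations of each gene from its own mean. Among 21366 probe sets with 1 gene symbol, the 5 nearest were *Luzp1* (0.086 log2 units), *Esp18* (0.148), *Ccl12* (0.167), *Ell* (0.169) and *Srxn1* (0.171), where the median of all was 0.542 and a profile with no change between arrays would have 0.458. The signals of *Esp18* and *Ccl12* were low, and their means lay under 5.13. *Luzp1*, which encodes a leucine zipper protein, had log2 signals of 6.22, 6.11, 6.11 and 6.38 in scrmb muscles A to D and of 7.24, 7.16, 6.34 and 6.62 in MYTHO muscles. Like *Myog*, it was highest in MYTHO A and B. *Cdh15* was the nearest of the other 7 genes at 0.320, in place 724 of that ranking, and *Myf6* the farthest at 0.586. With so many probe sets and 8 arrays, close profiles can arise without a link.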

How the data were processed

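RNA from 8 GAS muscles was hybridised to Clariom S Mouse arrays. The authors deposited log2 signals, rounded to 2 decimals, made with the Transcriptome Analysis Console 4.0.1 by SST-RMA (background correction, transformation to a common signal space, quantile normalization, median polish), per the file headers with annotation release 36 on mm10. The table also holds the authors' group averages, fold changes and p-values, which were not used. The labels give an age of 14 weeks, and the design text an injection at about 10.

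All 22206 probe sets were fitted with limma 3.58.1 (R 4.3.3, lmFit and eBayes, two-sided, MYTHO minus scrmb, no block), with Benjamini-Hochberg adjustment over all of them. The study's array methods give an eBayes ANOVA and name no pairing term for it, while its general statistics used paired tests for related samples. The legs are paired by animal, so fits with animal as a block were run as alternatives. The procedure was tested on simulated data. The members and lists were chosen with earlier results of these data known. Named genes were the 8 members, the hairpin target, list genes with an unadjusted p under 0.05 and groups apart, and the 5 profiles nearest to *Myog*. Other genes are named as specific markers or were chosen after their values were seen. Each gene was represented by the probe set with the highest mean signal. Gene locations and promoters came from RefSeq tables of GRCm38.p6, the assembly of mm10. The promoter motifs were chosen with results known.

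Column names carry an animal number found once in each group, and the viruses were injected into opposite legs, so same-numbered arrays share an animal. Deviations from the group means correlated by 0.00266, -0.00145, 0.135 and 0.0871 in animals A to D. The number of arrays limits the precision of every value. Alternatives were other normalizations, filters, variance moderation, array weights, blocks on animal and leaving out each array.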

Additional observations from a re-analysis of the deposited data

Results flagged for a closer look

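In 16 groups of 4 arrays, the 8 genes in 2 conditions, 1 array stood apart from the others of its group by Dixon's criterion, where chance gives about 1 in 20. This was *Myf5* in MYTHO muscle of animal B, with a log2 signal of 5.49 against 4.94 to 5.0 in the other MYTHO muscles, a gap of 0.891 of the range. Without this array the *Myf5* log2 fold change was -0.246 in place of -0.117, and without each of the other 7 arrays it lay between -0.218 and -0.058.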

How the results depend on the processing

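None of the 8 genes passed a limma adjusted p under 0.05 in any of the 18 alternatives, 10 of settings and 8 that each left out 1 array, although filters on signal removed *Pax7* (upper 75% of probe sets) or all but *Myod1* and *Myf6* (upper 50%). The 2 genes past an unadjusted p under 0.05, *Myog* and *Cdh15*, were the same in the other 9 settings and 0 in the upper 50%, where neither was tested. Without single arrays the count ran from 0 to 2, at 1 without scrmb A and 0 without scrmb C, MYTHO A or MYTHO B. The *Myog* log2 fold change ran from 0.65 to 0.69 over settings and from 0.496 to 0.836 without single arrays, with an adjusted p from 0.203 to 0.538. With the replicate block on animal it was 0.647 (limma adjusted p = 0.295), and the block changed no call among the 8 genes. Signs reversed for *Pax7*, from -0.087 to 0.063 without single arrays, and *Myod1*, from -0.160 to 0.419, neither of them called, and the cause was not tested. The count of higher list genes, an alternative set chosen after seeing the data, ran from 7 to 11 over settings and from 7 to 12 without single arrays, in place of 10. The 7 over settings was with the filter on the upper 50%, which kept 65 of the 99 genes. Scaling moved the median of all probe sets from -0.005 to at most 0.035. Signals near the floor or the ceiling of 19.93 limit what can be measured. At the low end this holds for *Pax7*, *Chrng*, *Twist1*, *Myf5* in MYTHO muscle and *Myog* in scrmb muscle, and at the high end for *Myh8*.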
